A study of Mus musculus with 4 samples.

Results

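Polycomb repressive complex 2 (PRC2) is the enzyme complex that places methyl groups on lysine 27 of histone H3, and the trimethylated form, H3K27me3, marks genes kept silent. Its core holds a catalytic subunit, EZH1 or EZH2, together with SUZ12, EED and a histone-binding protein, RBBP4 or RBBP7. The core joins either a Polycomb-like protein (MTF2, PHF19 or PHF1, forming PRC2.1) or JARID2 with AEBP2 (forming PRC2.2). EZH2 is known as the form of dividing cells and EZH1 as the form of resting, differentiated cells. The 10 genes of these subunits, namely Ezh1, Ezh2, Suz12, Eed, Rbbp4, Rbbp7, Jarid2, Mtf2, Phf19 and Phf1, were chosen by symbol from the 24873 genes of the series. All 10 were present and all 10 passed the filter on low values, a mean of at least 10 normalized counts.

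The series compares RNA of cerebral cells from mice in which Mgp, the gene of matrix Gla protein, can be deleted in endothelial cells, a model of cerebral arteriovenous malformation. All 4 libraries came from mice of the genotype Cdh5cre;Mgpflox/flox, in which the recombinase is driven by the VE-cadherin (Cdh5) promoter and is active after tamoxifen. The tamoxifen group (2 libraries) received 75 mg/kg daily on 5 days, starting at 10 weeks of age. The control group (2 libraries) received no tamoxifen, so that deletion and drug cannot be told apart. Each library held sorted cells of 3 pooled mice on day 9, described by the study as CD31+CD45- and by the sample labels as Brain tdTomato+. The deposited table names its columns by the letters C and A, and A was read as tamoxifen because C matches the control titles, with no label that spells out A. Values are normalized counts, that is read counts divided by 1 factor per library, and each library held between 35387438 and 49799321 reads on genes. A log2 fold change is the tamoxifen mean minus the control mean of log2(normalized count + 1), and a gene rose or fell where limma gave a Benjamini-Hochberg (BH) adjusted p under 0.05 over the 20485 genes tested. The study describes the pools as independent, so p-values measure the spread between pools of mice and not between single mice.

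Mgp itself had 1094 and 1352 normalized counts in control and 945 and 909 under tamoxifen, a log2 fold change of -0.39 (standard error (SE) 0.18, adjusted p = 0.0986) that did not pass the test. It was 0.079 with libraries rescaled to equal totals and passed as lower with quantile normalization (-0.65, adjusted p = 0.0128, range over the alternatives 0.0128 to 0.713). The labelled endothelial identity was checked with 14 marker genes, all present in the 4 libraries and all lower under tamoxifen (median log2 fold change -2.94), whose summed normalized counts were 1474707 and 1448871 in the control group and 243410 and 120114 in the tamoxifen group. All 16 cell cycle genes rose (median 5.35), and their sum went from 5245 and 6641 to 138528 and 126397. All 12 pluripotency markers rose as well (sum 268 and 365 against 72490 and 58763), as did all 10 neutrophil markers (sum 304 and 247 against 112153 and 83649, with Cebpe and Ly6g at 0 reads in both control libraries). Genes nearly silent in control passed the filter on low values only through the tamoxifen group, so the number that rose was partly fixed in advance. Markers of further cell types are given at the end of the results. These lists moved with the same contrast as every PRC2 gene below, and their part in the changes was not tested. In bulk RNA a change in the share of a cell type and a change of RNA per cell cannot be told apart.

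Of the 10 PRC2 genes, 8 rose and 2 fell under tamoxifen. Ezh2, Suz12, Eed, Rbbp4, Rbbp7, Jarid2, Mtf2 and Phf19 were higher, whereas Ezh1 and Phf1 were lower. Of all genes tested, 33.4% rose and 25.5% fell by the same rule. With the further limit of an absolute log2 fold change over 1, the calls were Ezh2, Mtf2 and Phf19 higher and Ezh1 and Phf1 lower, against 28.6% of all genes called higher and 16.0% called lower. The 2 groups did not overlap for any of the 10 genes, which held for 82.3% of all genes tested and is therefore common in this contrast. The median log2 fold change was 0.75 for the 10 genes and 0.05 for all genes tested. Each member was measured with at least 103 reads in every library, and with up to 17778.

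**Figure D1:**
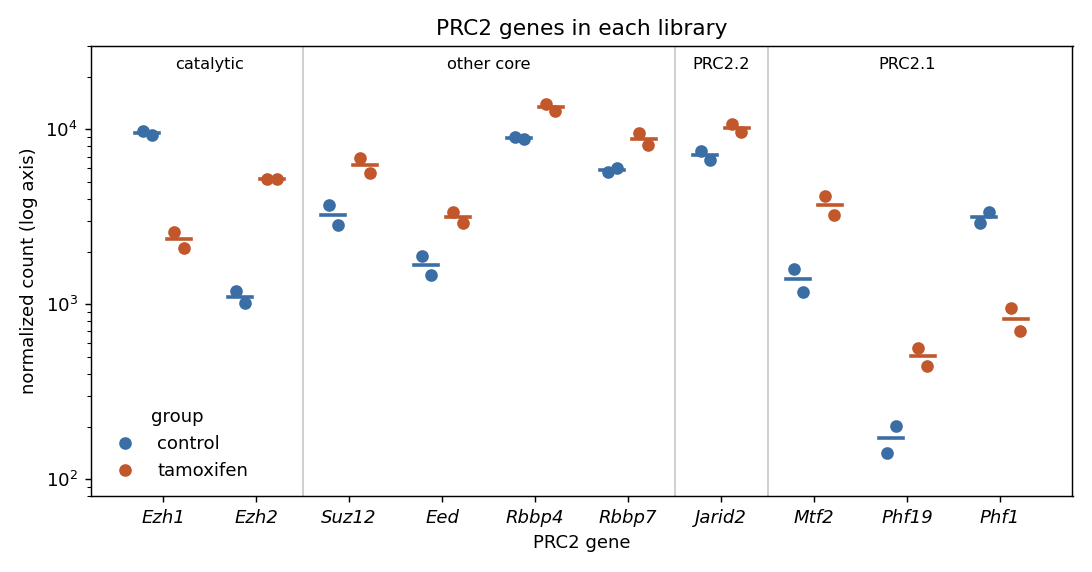
Normalized counts (log axis) of the 10 PRC2 genes in the 2 control and 2 tamoxifen libraries, grouped by role, with points for libraries and bars for group means. Ezh1 and Phf1 lie lower in both tamoxifen libraries, and the other 8 genes lie higher in both.

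The catalytic subunits moved in opposite directions. Ezh1 (ENSMUSG00000006920.16, GRCm39 chromosome 11 from 101081934 to 101117315) had 9839 and 9323 normalized counts in control and 2588 and 2112 under tamoxifen. Ezh2 (ENSMUSG00000029687.18, chromosome 6 from 47507073 to 47572331) had 1190 and 1020 in control and 5189 and 5195 under tamoxifen. The control libraries were thus the high ones for Ezh1 and the low ones for Ezh2, with wide gaps between the groups in both cases. Ezh1 fell by 2.03 on the log2 scale (SE 0.17, limma with BH adjustment, adjusted p = 6.22e-05), and 6.53% of all genes tested had a lower log2 fold change. Ezh2 rose by 2.24 (SE 0.16, adjusted p = 3.55e-05), a change exceeded by many genes, since 79.0% of all genes tested had a lower log2 fold change. Both calls held in all 14 alternative fits, with Ezh1 between -2.18 and -1.56 and Ezh2 between 2.12 and 2.71.

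The ratio of Ezh2 to Ezh1 within a library does not depend on how libraries are scaled. Per kilobase (kb) of merged exons it was 0.153 and 0.139 in control and 2.54 and 3.12 under tamoxifen. Ezh1 was the larger form in both control libraries and Ezh2 in both tamoxifen libraries. The log2 ratio differed by 4.27 between the groups, a 19.3-fold difference with no overlap (exact two-sided permutation test over libraries, p = 0.333, the smallest value that 2 libraries against 2 allow). Of the summed levels of both genes per kb of merged exons, Ezh2 made up 13.3% and 12.2% in control and 71.8% and 75.7% under tamoxifen. The sum itself was 1227 and 1148 normalized counts per kb in control and 991 and 940 under tamoxifen. That direction is not stable, because the ratio of the means of the sum was 0.813 as deposited and 1.13 with libraries rescaled to equal totals. Relative to Suz12, with which either enzyme must assemble, the sum was 2.50 and 3.06 per kb in control and 1.08 and 1.26 under tamoxifen. This ratio differed by 2.37-fold between groups that did not overlap (exact p = 0.333).

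**Figure D2:**
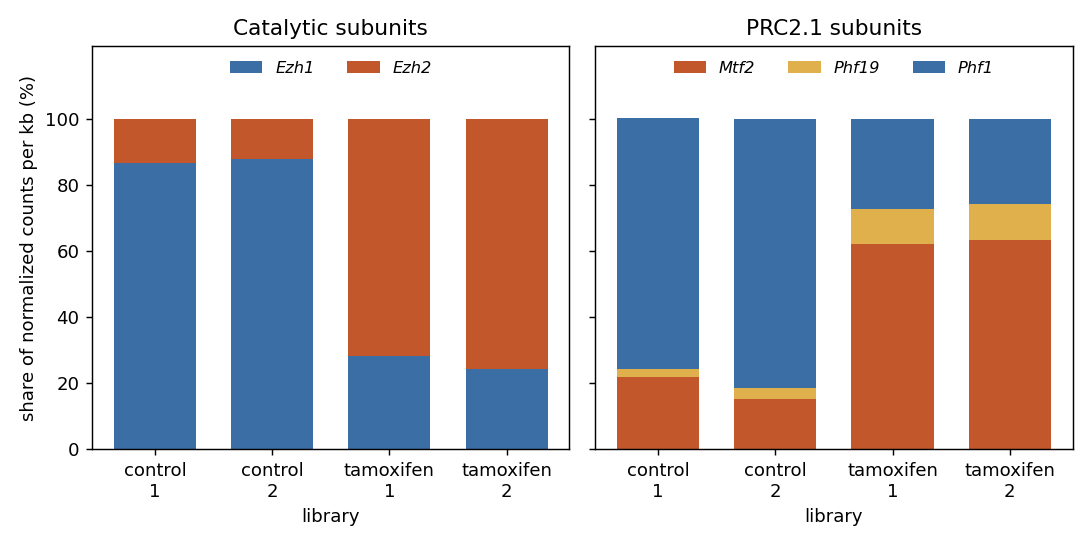
Share in percent of the summed normalized counts per kb of merged exons taken by each catalytic subunit (left) and by each PRC2.1 subunit (right) in the 4 libraries. Ezh2 takes 12.2% to 13.3% of the catalytic pair in control and 71.8% to 75.7% under tamoxifen, and Phf1 takes 75.7% to 81.6% of the PRC2.1 genes in control and 25.9% to 27.2% under tamoxifen.

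The changes of the enzymes can be set beside those of the marker lists. Ezh1 fell, as did the endothelial marker Pecam1 (CD31). The normalized count of Ezh1 per count of Pecam1 was 0.118 and 0.105 in control and 0.162 and 0.235 under tamoxifen. Ezh1 was therefore higher relative to Pecam1 in both tamoxifen libraries, by 1.76-fold (exact p = 0.333). Ezh2 per count of Mki67, a proliferation marker, was 3.50 and 2.37 in control and 0.167 and 0.161 under tamoxifen. Mki67 thus rose by more than Ezh2, and the ratio differed by 17.6-fold (exact p = 0.333). This holds for Mki67 and not for every cell cycle gene. The 16 genes of that list rose by 1.11 (Pcna) to 7.22 (Ccnb1), and Pcna rose by less than Ezh2 (2.24). In all, 11 ratios within libraries were computed for these results, and a p of 0.333 among them became 0.407 after BH adjustment. That of Ezh2 to Ezh1 was planned, with earlier results of these data known, and the others were chosen after values had been seen.

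The sequences before the start sites of both enzymes are shown because the pair moved in opposite directions. They come from GRCm39 and run up to 250 bases before the GENCODE M39 start site, cut to the part outside annotated exons and written 5′ to 3′ along the gene. Capitals mark a match to a cell cycle homology region (CHR, TTTGAA or TTCGAA), an element known from genes active late in the cell cycle, on either strand. The stretch of Ezh1 has no match, and that of Ezh2 has 2 within a few bases of each other, 1 in each orientation.
Ezh1 (chr11:101117316-101117565, minus strand): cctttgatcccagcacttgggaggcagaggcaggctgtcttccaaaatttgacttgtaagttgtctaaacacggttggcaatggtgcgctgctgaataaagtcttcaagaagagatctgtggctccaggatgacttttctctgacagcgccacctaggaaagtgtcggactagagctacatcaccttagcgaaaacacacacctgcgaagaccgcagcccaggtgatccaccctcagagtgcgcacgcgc
Ezh2 (chr6:47572332-47572517, minus strand): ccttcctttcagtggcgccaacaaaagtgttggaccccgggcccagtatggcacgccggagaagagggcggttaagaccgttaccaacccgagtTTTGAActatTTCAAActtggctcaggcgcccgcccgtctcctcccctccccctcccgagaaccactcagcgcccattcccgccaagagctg
Over the full 250 bases, 4 of the 10 members had a CHR match (Ezh2, Suz12, Eed and Phf1), against 17% of 21751 promoters of the same length and 5.67% of the 5996 promoters with a GC content of at least 60%. Of the members, Ezh1 (52.4%) and Eed (55.2%) lie below that GC content. Phf1, which has a CHR match, fell like Ezh1, which has none. Rbbp4, Rbbp7, Jarid2, Mtf2 and Phf19 rose without a CHR match. A match describes the letters only and not binding.

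The other core subunits rose together but by less than Ezh2. Suz12 (ENSMUSG00000017548.17, chromosome 11 from 79883891 to 79925421), the scaffold of the complex, had 3696 and 2826 normalized counts in control and 6907 and 5607 under tamoxifen. Eed (ENSMUSG00000030619.12, chromosome 7 from 89603862 to 89630217), which binds H3K27me3 and stimulates the enzyme, had 1900 and 1478 in control and 3373 and 2927 under tamoxifen. Both genes were higher in both tamoxifen libraries, with control 1 the higher of the control pair for each. Suz12 rose by 0.95 (SE 0.19, adjusted p = 0.00388) and Eed by 0.91 (SE 0.18, adjusted p = 0.0035). The normalized counts of Eed per count of Suz12 were 0.514 and 0.523 in control and 0.488 and 0.522 under tamoxifen. Here the groups overlapped, and the log2 ratio differed by -0.04 between them (exact p = 0.667).

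Rbbp4 and Rbbp7 encode histone chaperones that also serve other chromatin complexes. Rbbp4 (ENSMUSG00000057236.12, chromosome 4 from 129184867 to 129229170) had 9105 and 8845 normalized counts in control and 13992 and 12781 under tamoxifen. Rbbp7 (ENSMUSG00000031353.15, chromosome X from 161543356 to 161562099) had 5678 and 6024 in control and 9504 and 8162 under tamoxifen. Their rises were small and near equal, at 0.58 for Rbbp4 (SE 0.17, adjusted p = 0.0193) and 0.59 for Rbbp7 (SE 0.16, adjusted p = 0.0159). The ratio of Rbbp7 to Rbbp4 in normalized counts was 0.624 and 0.681 in control and 0.679 and 0.639 under tamoxifen, with overlapping groups and a difference of 0.02 in log2 (exact p = 1). Neither rise passed the test without the mean-variance trend (adjusted p = 0.0706 and 0.0762) or with any library left out, and the adjusted p ran from 0.000762 to 0.138 for Rbbp4 and from 0.00074 to 0.118 for Rbbp7 over the 14 alternatives. The rises of Suz12 and Eed were lost only with tamoxifen replicate 1 left out (adjusted p = 0.112 and 0.104) or tamoxifen replicate 2 left out (adjusted p = 0.0784 and 0.0825), with ranges over the alternatives from 9.38e-06 to 0.112 and from 1.5e-05 to 0.104.

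Jarid2 (ENSMUSG00000038518.17, chromosome 13 from 44882950 to 45075119) encodes the PRC2.2 subunit that helps to bring the complex to chromatin. It had 7536 and 6686 normalized counts in control and 10671 and 9684 under tamoxifen. Jarid2 rose by 0.52 (SE 0.17, adjusted p = 0.029), the smallest change among the 10 members, and the call was lost with any library left out and without the trend (adjusted p = 0.0994, range over the alternatives 0.00108 to 0.22). Aebp2, the other subunit of PRC2.2 and not a member of the chosen set, had 3685 and 3258 in control and 3616 and 3185 under tamoxifen. Its groups overlapped (log2 fold change -0.03, SE 0.16, adjusted p = 0.883), although with libraries rescaled to equal totals it was 0.44 higher (adjusted p = 0.0281, range 0.0281 to 0.939). The ratio of Jarid2 to Aebp2 in normalized counts was 2.05 and 2.05 in control and 2.95 and 3.04 under tamoxifen, a 1.46-fold difference (exact p = 0.333).

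The 3 Polycomb-like genes of PRC2.1 diverged. Mtf2 (ENSMUSG00000029267.19, chromosome 5 from 108213540 to 108256877) encodes the form that brings PRC2 to CpG islands in stem cells. Its normalized counts were 1603 and 1182 in control and 4143 and 3257 under tamoxifen. Phf19 (ENSMUSG00000026873.11, chromosome 2 from 34783764 to 34805063), which reads methylated lysine 36 of histone H3 as its relatives do, had 141 and 202 in control and 566 and 441 under tamoxifen. Phf1 (ENSMUSG00000024193.10, chromosome 17 from 27152002 to 27156892) had 2919 and 3366 in control and 957 and 702 under tamoxifen. Mtf2 and Phf19 were high under tamoxifen and Phf1 was high in control, with no overlap in any of the 3. Mtf2 rose by 1.42 (SE 0.20, adjusted p = 0.000715), Phf19 rose by 1.56 (SE 0.30, adjusted p = 0.00299), and Phf1 fell by 1.93 (SE 0.20, adjusted p = 0.00014). For Phf1, 7.35% of all genes tested had a lower log2 fold change. The fall of Phf1 passed the test in all 14 alternatives. Without tamoxifen replicate 1 or tamoxifen replicate 2, the rises of Mtf2 (adjusted p = 0.0725 and 0.0586) and Phf19 (adjusted p = 0.114 and 0.0844) did not pass, and quantile normalization left Phf19 at 0.53 (adjusted p = 0.154). Over the alternatives the adjusted p ran from 5.58e-12 to 0.0725 for Mtf2 and from 3.87e-06 to 0.154 for Phf19.

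Per kb of merged exons, Phf1 made up 75.7% and 81.6% of the 3 Polycomb-like genes in control and 27.2% and 25.9% under tamoxifen. Mtf2 went from 21.9% and 15.1% to 62.0% and 63.2%, and Phf19 from 2.46% and 3.28% to 10.8% and 10.9%. Phf1 was thus the leading gene of the 3 in both control libraries and Mtf2 in both tamoxifen libraries. The ratio of Mtf2 to Phf1 differed by 10.2-fold between the groups and that of Phf19 to Phf1 by 11.3-fold, both without overlap (exact p = 0.333 for each). The sum of the 3 genes relative to Suz12 was 2.18 and 3.05 per kb in control and 1.06 and 1.01 under tamoxifen (2.49-fold, exact p = 0.333). Between the accessory branches, the ratio of Jarid2 to Mtf2 was 2.97 and 3.57 per kb of the longest transcript in control and 1.63 and 1.88 under tamoxifen (1.86-fold, exact p = 0.333).

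Sequences near the start sites are shown next for Suz12, Mtf2 and Phf19, which match an E2F element (TTTCCCGC, TTTCGCGC, TTTGCCGC or TTTGGCGC on either strand), and for Phf1, which does not. E2F is a family of transcription factors that control genes of DNA replication and the cell cycle. The windows of Mtf2 and Phf19 lie before the start site of the canonical transcript but inside the annotated gene, and all 30 bases of the Mtf2 window and 6 of the Phf19 window are exon bases of other transcripts. Capitals mark the E2F match in the windows of 30 bases and the CHR match in the stretch of Phf1.
Phf1 (chr17:27151752-27152001, plus strand): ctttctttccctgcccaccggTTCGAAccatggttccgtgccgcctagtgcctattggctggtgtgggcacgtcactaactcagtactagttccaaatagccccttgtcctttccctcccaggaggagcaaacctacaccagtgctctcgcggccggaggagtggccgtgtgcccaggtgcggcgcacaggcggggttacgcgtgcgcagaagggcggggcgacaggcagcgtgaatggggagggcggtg
Mtf2 (chr5:108213576-108213605, plus strand): accgctagtccGCGGGAAAccaaaatggcg
Phf19 (chr2:34804178-34804207, minus strand): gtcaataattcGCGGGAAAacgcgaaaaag
Suz12 (chr11:79883702-79883731, plus strand): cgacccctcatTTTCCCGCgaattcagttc
These 3 of the 10 members (Suz12, Mtf2 and Phf19) held an E2F match in the 250 bases, against 2.28% of the 21751 promoters and 3.85% of the 5996 with a GC content of at least 60%. Ezh1 and Eed lie below that GC content. All 3 genes with an E2F match rose, and Phf1 and Ezh1, which fell, had none. Ezh2, Eed, Rbbp4, Rbbp7 and Jarid2, which rose, had none either. No match says only that these letters are absent from this window.

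**Figure D3:**
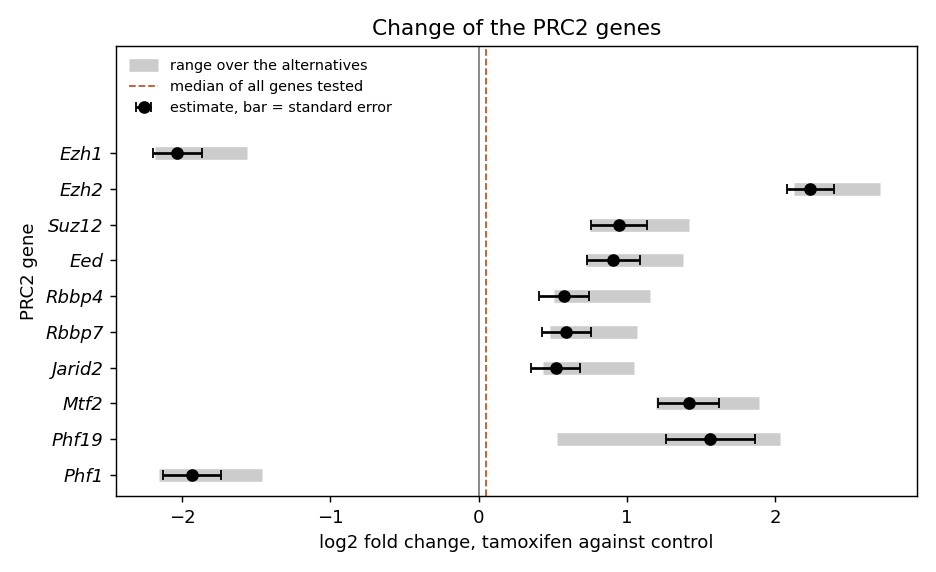
Log2 fold change of each PRC2 gene, tamoxifen against control, with its standard error (black) and the range over the 14 alternatives (grey), beside the median of all genes tested (0.05, dashed). Ezh1 and Phf1 lie between -2.18 and -1.46 in every alternative, and the other 8 genes lie above 0 in every alternative.

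The order of the members by level was compared per kb of merged exons. In the control group it ran Ezh1 (1036 normalized counts per kb, mean), Phf1 (869), Rbbp7 (709.8), Rbbp4 (708), Jarid2 (660.4), Eed (438), Suz12 (432), Mtf2 (203), Ezh2 (151) and Phf19 (31.8). The libraries of neighbours overlapped between Rbbp7 and Rbbp4, between Rbbp4 and Jarid2, and between Eed and Suz12, so that these neighbours did not differ beyond their spread. In the tamoxifen group it ran Rbbp7 (1072), Rbbp4 (1056), Jarid2 (945), Suz12 (829), Eed (817), Ezh2 (711), Mtf2 (539), Ezh1 (254), Phf1 (229) and Phf19 (93.5). There the overlaps were between Rbbp7 and Rbbp4, between Jarid2 and Suz12, between Suz12 and Eed, and between Ezh1 and Phf1. Ezh1 went from position 1 to position 8 and Phf1 from 2 to 9, whereas Ezh2 went from 9 to 6. The order depends on the length used. With the longest transcript, Ezh1 again went from 1 to 8, but Phf1 went from 4 to 9, Ezh2 from 8 to 3 (1624 normalized counts per kb under tamoxifen) and Jarid2 from 5 to 6.

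The choice of scaling moved the values of all genes. The median of all genes tested was 0.52 with libraries rescaled to equal totals and -0.23 with quantile normalization, against 0.05 as deposited. Rescaling to equal totals shifts every gene nearly alike, but quantile normalization did not, since under it Rbbp4 was at 1.16 and Jarid2 at 1.04 while Phf19 was at 0.53. Relative to the median of the same setting, the 8 members that rose were higher by 0.35 (Jarid2) to 2.60 (Ezh2) over the 14 alternatives, and Ezh1 and Phf1 were lower, with values from -2.24 to -1.51 for Ezh1 and from -2.22 to -1.77 for Phf1. With equal totals, 7206 genes were called higher and 1838 lower. With quantile normalization the split was 4615 higher and 5509 lower, beside 5867 and 3284 as deposited.

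Of the 10 members, 9 (all but Suz12) share exon bases with a gene annotated on the opposite strand. The library kit marks strand, but the strand setting of the counting is not given in the sources used here. Reads of such pairs could not be told apart without strand. Rbbp4 shares 3178 bases with Sync, which had 2.74 and 6.26 normalized counts in control and 61.8 and 53.9 under tamoxifen, far below Rbbp4. Phf1 shares 1397 bases with Cuta, which had 1919 and 2466 in control and 1518 and 1329 under tamoxifen. Cuta was below Phf1 in control and above it under tamoxifen. Mtf2 shares 395 bases with Tmed5 (2323 and 1710 in control, 1438 and 1421 under tamoxifen), which was above Mtf2 in control and below it under tamoxifen. Ezh1 shares 814 bases with Cntnap1 (836 and 737 in control, 258 and 550.0 under tamoxifen) and Jarid2 shares 1293 bases with Dtnbp1 (786 and 1075 in control, 1152 and 932 under tamoxifen). The pseudogene Gm6382 matches Rbbp7 over 942 bases at 97.1% identity but had at most 14.1 normalized counts in any library.

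Beyond the members, 5 further genes tied to PRC2 were listed, among them an inhibitor. Epop, an adaptor of PRC2.1, had 35.6 and 22.5 normalized counts in control and 2842 and 2247 under tamoxifen. It rose by 6.43 (SE 0.32, limma with BH adjustment, adjusted p = 9.3e-06), a larger change than that of any member. Ezhip, an inhibitor of PRC2 known from germ cells, had 0 and 1 read in control and 222 reads under tamoxifen together. That is a ratio of 147 with a 95% exact counting interval from 26.1 to 5820.0. Ezhip passed the test (limma with BH adjustment, adjusted p = 0.000193), but it passed the filter on low values only through the tamoxifen group. Its rise was therefore partly fixed in advance. Lcorl fell by 0.72 (SE 0.23, adjusted p = 0.0269), a call lost in 6 of the 14 alternatives. Its relative Lcor was not past the test (1703 and 1093 in control, 1437 and 1648 under tamoxifen). Per kb of merged exons, Epop had 1228 and 971 under tamoxifen, a range that overlapped those of Rbbp7 (1153 and 990.1) and Jarid2 (991 and 899) and lay above that of Mtf2 (604 and 474). The overlap with Rbbp7 depends on the length used. Per kb of the longest transcript, Epop was unchanged at 1228 and 971, below Rbbp7 (2156 and 1852). Its range still overlapped that of Jarid2 (1277.5 and 1159) and lay above that of Mtf2 (786 and 617).

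PRC1 is the partner complex that ubiquitinates histone H2A and, in its canonical form, binds H3K27me3. Of the 13 canonical PRC1 genes, 2 rose (Phc1 and Pcgf2) and 8 fell (median -0.67). With equal totals, which shift all genes nearly alike, 5 rose and 4 fell, while the median of the list relative to that of all genes was -0.72 in both settings. With quantile normalization this relative median was -0.33. The genes of highest level were Phc2 (8347 and 9194 in control, 4376 and 4456 under tamoxifen) and Cbx6 (8303 and 9712 in control, 4910 and 4446 under tamoxifen), which fell by 0.99 and 0.94. The largest changes were falls of Phc3 (1.34, adjusted p = 0.000414) and Scmh1 (1.28, adjusted p = 0.000218). Of the 13 variant PRC1 genes, 3 rose and 5 fell, with a median of -0.38. Relative to all genes the median was -0.43 both as deposited and with equal totals, but -0.09 with quantile normalization. Pcgf6 rose by 1.64 (adjusted p = 0.000267) and Kdm2b, which binds CpG islands, from 1131 and 1079 normalized counts to 3023 and 2671 (adjusted p = 0.000244), whereas the abundant Fbrs fell by 0.99 and Bcor by 0.43 (adjusted p = 0.0382). The call of Bcor held in only 5 of the 14 alternatives (adjusted p from 0.0313 to 0.78) and was lost with any library left out.

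Genes that act on the same histone marks were compared next. Of the 4 H3K27 demethylases and acetyltransferases, Kdm6a (UTX) fell by 0.92 (adjusted p = 0.0011), Crebbp by 0.94 (adjusted p = 0.00191) and Ep300 by 0.56 (adjusted p = 0.0207), the last with a call that held in 7 of the 14 alternatives (adjusted p from 0.00866 to 0.946) and a log2 fold change of 0.011 with quantile normalization. Kdm6b had 5397 and 5045 normalized counts in control and 5771 and 5786 under tamoxifen and was not past the test (log2 fold change 0.15, adjusted p = 0.421). With equal totals (0.62, adjusted p = 0.00635) or quantile normalization (0.56, adjusted p = 0.00965) it did pass as higher. The list had a median of -0.74, or -0.79 relative to all genes both as deposited and with equal totals, and -0.0009 relative to all genes with quantile normalization. Of the 6 genes of PR-DUB, which removes ubiquitin from histone H2A, Asxl3 rose by 3.67 from few counts (20.5 and 55.1 in control, 297 and 656 under tamoxifen, adjusted p = 0.00113) and Foxk1 fell by 1.01 (adjusted p = 0.00105). Bap1 (-0.27), Asxl1 (-0.15), Asxl2 (-0.23) and Foxk2 (0.09) were not past the test, although Foxk2 passed as higher with equal totals (0.56, adjusted p = 0.00942) and with quantile normalization (0.38, adjusted p = 0.0369). The list median relative to all genes was -0.24 as deposited and with equal totals and 0.40 with quantile normalization.

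RBBP4 and RBBP7 also belong to chromatin assembly, deacetylase and cell cycle complexes, for which 20 partner genes were listed. Of these 6 rose and 2 fell, with a median relative to all genes of -0.05 as deposited and with equal totals and 0.48 with quantile normalization. Chaf1a and Chaf1b, the chromatin assembly subunits that work at replication forks, had the largest changes. Chaf1a went from 182 and 159 normalized counts to 2731 and 2488 (log2 fold change 3.93, adjusted p = 9.5e-06) and Chaf1b from 90.4 and 240.3 to 2555 and 2056 (3.95, adjusted p = 0.000166). Chd4 (21491 and 24260 in control, 26903 and 27759 under tamoxifen) and Chd3 (14711 and 14204 in control, 9911 and 11836 under tamoxifen), the most abundant genes of the list, were not past the test. Chd4 passed as higher with equal totals (0.73, adjusted p = 0.00949) and with quantile normalization (1.06, adjusted p = 0.00273). Hdac2, the deacetylase that the study examines together with Ezh1, had 3654 and 3418 in control and 5295 and 5086 under tamoxifen and rose by 0.55 (SE 0.15, adjusted p = 0.0135). That rise was lost without the trend and with any library left out (adjusted p from 0.000703 to 0.0981 over the 14 alternatives). With either tamoxifen library left out, the calls of Chaf1b, Cbx6, Phc3, Crebbp, Asxl3, Bcor, Ep300 and Lcorl were lost as well.

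Loci known as targets of H3K27me3 in many tissues were read as a list of 16 genes, of which 10 passed the filter on low values. Of the 10, 9 rose and 1 fell, and the median log2 fold change was 4.48, or 4.02 with Hoxb13 set to its lower bound. A gene silent in the control group passed the filter only through the tamoxifen group, so this count says nothing of the list as a whole. Gata4 had 3 reads in control together and 2643 under tamoxifen (ratio 582, 95% interval 199 to 2830), and Hoxa9 had 1 and 250 (ratio 165, interval 29.4 to 6550). Hoxb13 had no read in control and was at least 9.31-fold higher against 3 reads per library. Pax6 went from 61.6 and 75.1 normalized counts to 1292 and 2973 (4.83, adjusted p = 6.2e-05). Cdkn2b, a cell cycle inhibitor and the most abundant gene of the list, fell by 1.67 (3191 and 3760 in control, 1464 and 810.2 under tamoxifen, adjusted p = 0.00128). These intervals and bounds cover counting error only.

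**Figure D4:**
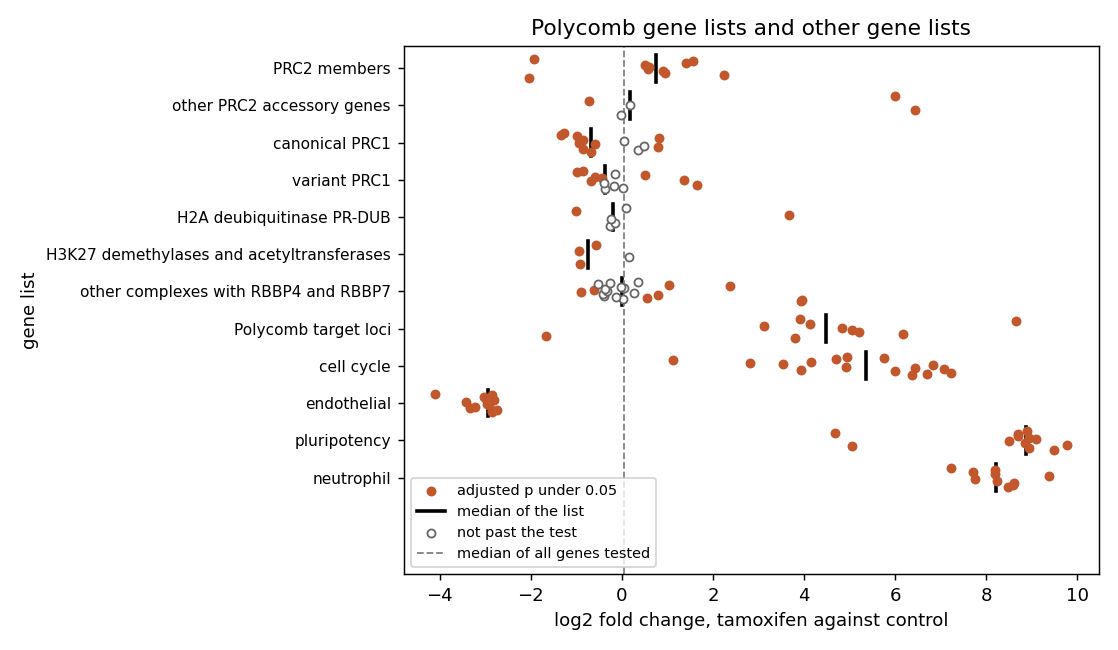
Log2 fold change, tamoxifen against control, of each tested gene in the Polycomb lists and in 4 other lists. Filled points had an adjusted p under 0.05, the black bar is the median of a list and the dashed line the median of all genes tested (0.05). The PRC2 genes spread from -2.03 to 2.24, beside medians of -2.94 for the endothelial genes and 5.35 for the cell cycle genes. The lowest cell cycle gene was Pcna (1.11), so the PRC2 and cell cycle ranges overlapped.

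The 16 cell cycle genes rose by 1.11 (Pcna) to 7.22 (Ccnb1). Mki67 went from 340 and 431 normalized counts to 31066 and 32223 (log2 fold change 6.37) and Top2a from 211 and 305 to 27220 and 26135 (6.71). Ccnb1 and Bub1 (7.07) had the largest changes of the list. All 16 rose in each alternative, whereas the number of PRC2 genes that rose went down to 1, Ezh2, with either tamoxifen library left out.

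Markers of further cell types moved in the same contrast. CD45 itself, the marker that the sort selects against, is encoded by Ptprc, which had 50.7 and 83.9 normalized counts in control and 1423 and 1119 under tamoxifen. All 8 erythroid markers rose (sum 18675 and 37963 in control, 172495 and 111720 under tamoxifen), as did all 8 fibroblast markers (2352 and 3328 against 70042 and 60116, with Dpt at 0 reads in both control libraries) and all 8 astrocyte markers (30327 and 36376 against 151030 and 311951). All 6 lymphocyte markers that could be tested rose, with Cd3e at 0 reads in 1 control library. The sum over the 7 lymphocyte markers present, tested or not, was 71 and 91 in control and 3012 and 2170 under tamoxifen. As above, genes nearly silent in control passed the filter only through the tamoxifen group, so the number that rose says little of such lists as a whole. The counts were 7 of 9 for oligodendrocyte lineage genes (3638 and 6050 against 25118 and 53063), 6 of 8 for neuron genes (1297 and 1543 against 13741 and 21974), 5 of 8 for microglia and macrophage genes (2578 and 3956 against 6007 and 5095) and 3 of 9 for pericyte and smooth muscle genes (26041 and 45493 against 35042 and 67211). No gene of these lists passed the test as lower, with Tagln, a pericyte and smooth muscle gene, at -1.43 (adjusted p = 0.0587), and 1 gene of that list did pass as lower with a pseudocount of 5, with quantile normalization and without the trend. With tamoxifen replicate 1 or 2 left out, the genes that rose numbered 3 and 3 for the erythroid list, 5 and 2 for astrocyte, 6 and 6 for fibroblast, 5 and 5 for lymphocyte, 5 and 5 for oligodendrocyte lineage, 5 and 4 for neuron, and 0 and 0 for both microglia and macrophage and pericyte and smooth muscle. The last list had 6 with the replicate block. Their part in the changes of the PRC2 genes was not tested.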

How the data were processed

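RNA of sorted cerebral cells was sequenced in 2 control and 2 tamoxifen libraries, each from 3 pooled mice. Both sexes were used in the study. Reads were aligned by the authors to GRCm39 (STAR 2.7.10a) and counted in the same step. Genes with few reads were excluded before normalization with DESeq2 1.36.0. The annotation release, the strand setting and the limit for few reads are not given in the sources used here. The values deposited by the authors are a normalized signal for each gene, a read count over a factor of its library. Every value (100%) was a whole multiple of what 1 read is worth (tolerance 0.01), so reads were recovered. No column of values was left unmapped.

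From these values, log2(normalized count + 1) was tested with limma 3.58.1 in R 4.3.3 (eBayes with a mean-variance trend), with BH adjustment over all genes tested. Genes whose mean was under 10 were left out. A gene rose or fell at an adjusted p under 0.05, and was called at that p with an absolute log2 fold change over 1. Ratios within libraries were compared with exact permutation tests in scipy 1.17.1. Locations, lengths and sequences came from GRCm39 with GENCODE M39, in which all 10 members were found, and look-alike transcripts from blastn 2.17.0. A fold against a control group at 0 is given against 3 reads per library.

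The 10 members and all gene lists were chosen with earlier results of these data known. By the rule for named genes, every member is given in full, and from each Polycomb list and the cell cycle list the 2 genes of highest mean level and the 2 of largest change (lists of up to 6 genes whole), besides Hdac2 and Mgp. Phc1, Pcgf2, Hoxb13, Pcna, Pecam1, Ptprc and the overlapping genes were named after their values had been seen. Tried as alternatives were a pseudocount of 0.5 or 5, no filter or a mean of at least 100, equal totals, quantile normalization, limma without the trend, a replicate block, each library left out, and tests of the recovered reads with edgeR 4.0.16 and with DESeq2 1.42.0.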

Additional observations from a re-analysis of the deposited data

How the results depend on the processing

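Of 140 values for the 10 members (14 alternatives each), 116 kept their direction and their side of the threshold, 24 kept the direction and lost the call, and none reversed. The number of genes called, 9151, was 5934 with a mean of at least 100 (fewer genes tested) and from 4147 to 9700 with a library left out, the lowest without tamoxifen replicate 2 and 5024 without tamoxifen replicate 1, where the cause was not tested. Members that rose numbered 8, but 5 without the mean-variance trend, where the cause was not tested, and from 1 to 5 with a library left out. A lone library in a group is assumed there to vary like the others. Members that fell stayed at 2, and the log2 ratio of Ezh2 to Ezh1 ranged from 4.12 to 4.42 with a library left out. The deviations of control 1 and tamoxifen 1 from their group means were nearly uncorrelated over the genes tested (correlation 0.025). With 2 libraries per group the other pair gives the same value, so this does not settle what the replicate numbers stand for. With the replicate block the counts were 9525 genes called, 8 members higher and 2 lower, and the log2 ratio was 4.27. Values that reversed belong to genes that are no members, whose alternatives were chosen after seeing the data. With equal totals, which by construction shift every gene nearly alike, they were Aebp2 (0.44), Bcor (0.043), Bap1 (0.20), Asxl1 (0.32), Asxl2 (0.24), Chd3 (0.054) and Mgp (0.079), and with quantile normalization Aebp2 (0.19), Bap1 (0.0090), Asxl1 (0.34), Ep300 (0.011) and Chd3 (0.21). With a library left out, Aebp2 ranged from -0.12 to 0.0615 and Lcor from -0.15 to 0.49. The cause of the reversals other than those with equal totals was not tested. Phf19, the member with the fewest reads (103 at the lowest), had the largest standard error among them (0.30). The limits are 2 libraries per group, a control without tamoxifen, and markers of other cells that moved with the groups.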
